A study of Mus musculus with 2 samples.

Results

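Mir214, Mir199a-2, Mir199b and Mir199a-1 are microRNA genes that lie inside the dynamin genes of the mouse, on the strand opposite to them. They were taken by their symbols in the GENCODE M21 annotation, and all 4 were found among the 2202 microRNA genes counted. The libraries hold short RNA (labelled as under 30 bases) from the hearts of female mice aged 2 months of the strain B6CASTF1/J, a hybrid of the C57BL/6J and CAST/EiJ strains, obtained from The Jackson Laboratory. There is 1 group with 2 biological replicates, with no treatment, no altered allele and no contrasting condition. The labels name females 03 and 04 of a biobank as sources, although 1 donor label covers both hearts, so p-values measure only how far 2 libraries differ, which may be technical.

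Dynamins are large GTPases that pinch vesicles off membranes. The antisense transcript of the Dnm3 gene, Dnm3os, is the precursor of miR-199a and miR-214, and it is switched on in mesenchyme by the transcription factor TWIST1. Both microRNAs are known from fibroblasts, skeletal precursors and other mesenchymal cells. In the heart miR-214 is known to act on calcium handling in injured muscle and miR-199a on muscle cell growth and hypoxia responses. A microRNA finds its targets mainly through its seed, bases 2 to 8 from its 5′ end.

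The mature sequences are shown because they decide which reads can be told apart between the genes. They were taken from RefSeq (build GRCm38.p6, the assembly of mm10), in which all 4 genes were matched at the same coordinates as in M21. Seeds are in capitals.
miR-214-3p: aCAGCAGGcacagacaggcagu
miR-214-5p: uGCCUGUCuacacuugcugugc
miR-199a-3p: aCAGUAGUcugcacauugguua
miR-199b-3p: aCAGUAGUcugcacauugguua
miR-199a-5p: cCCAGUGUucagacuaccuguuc
The 3p arms of miR-199a and miR-199b are the same 22 bases, and therefore share the seed CAGUAGU. The miR-199a-5p arm of 23 bases is the same in Mir199a-1 and Mir199a-2. The mature arms of Mir214 occur whole in no other hairpin of the 2202. Its 3p seed, CAGCAGG, is shared with 1 listed microRNA outside the 4 genes, miR-761 (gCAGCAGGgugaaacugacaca). The gene Mir761, on chromosome 4 at 109017655 to 109017730, had 0 and 1 counts. No other listed mouse microRNA shares a seed with these arms. For Mir199b the listing holds no 5p arm, although the matching place in its hairpin carries the miR-199a-5p seed, CCAGUGU.

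The hairpins are printed with the listed mature arms in capitals, to show how far the shared bases reach beyond the arms.
Mir214: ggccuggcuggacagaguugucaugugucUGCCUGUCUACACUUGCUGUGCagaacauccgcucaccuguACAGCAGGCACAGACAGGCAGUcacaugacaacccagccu
Mir199a-2: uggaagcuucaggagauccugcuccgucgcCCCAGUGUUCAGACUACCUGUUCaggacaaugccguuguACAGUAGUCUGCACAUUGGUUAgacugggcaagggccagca
Mir199b: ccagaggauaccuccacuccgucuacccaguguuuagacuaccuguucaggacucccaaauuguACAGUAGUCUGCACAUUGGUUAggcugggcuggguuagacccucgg
Mir199a-1: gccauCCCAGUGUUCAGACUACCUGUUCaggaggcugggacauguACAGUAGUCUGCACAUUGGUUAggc
In mm10, Mir199a-2 lies on chromosome 1 at 162217814 to 162217923 and Mir214 at 162223368 to 162223477, both on the plus strand. Both fall in an exon of Dnm3os and, on the opposite strand, in an intron of Dnm3, with 5444 bases between them. Mir199b lies on chromosome 2 at 32318460 to 32318569 on the plus strand, opposite an intron of Dnm1, the dynamin of neurons. Mir199a-1 lies on chromosome 9 at 21496495 to 21496564 on the minus strand, opposite an intron of Dnm2, the dynamin present in most tissues. The hairpins are 110, 110, 110 and 70 bases long in the order printed.

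Around their 5p arms, Mir199a-2 and Mir199a-1 share an unbroken run of 27 bases, cccaguguucagacuaccuguucagga, against a mature arm of 23. Around the 3p arms, Mir199a-2 shares 27 bases with Mir199b (uuguacaguagucugcacauugguuag) and 26 with Mir199a-1 (uguacaguagucugcacauugguuag), and Mir199b shares 28 with Mir199a-1. A read from these places is unique to a hairpin only where it runs past the shared bases. Where Mir199b aligns with miR-199a-5p it differs from it by 1 base, C10U, with positions counted from the 5′ end of miR-199a-5p: cccaguguuUagacuaccuguuc. The longest run around that arm shared by Mir199b with Mir199a-2 is 18 bases. Among microRNA hairpins, a full-length read of that place is thus unique to Mir199b, whereas a full-length read of its 3p arm is not. Matches elsewhere in the genome were not searched.

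Measured in exact stretches of 20 bases, 16 of the 91 stretches of Mir199a-2 occurred in a hairpin at another locus, 10 of 91 in Mir199b and 17 of 51 in Mir199a-1. In Mir214 none of 91 did. The partners were in each case the other miR-199 genes alone. Such a stretch was found in 1076 of all 2202 hairpins (48.9%), so having one does not by itself set the miR-199 genes apart. Of those 1076 genes 70 (6.51%) were detected, here meaning at least 10 counts in both libraries, against 236 of the 1126 others. Among 958 genes with a listed mature sequence, 45 had every one of them whole in a hairpin elsewhere, and 5 of these (11.1%) were detected: Mirlet7c-2, Mirlet7a-1, Mir3074-1, Mir199b and Mir219a-2. The miR-199 genes fall in that smaller class of 45, Mir199b by its listed 3p arm alone. Of the 59 genes with some but not all listed arms shared 33 (55.9%) were detected, and of the 854 with none 223 (26.1%). A gene with only some arms shared keeps an arm found in no hairpin elsewhere, so these classes are no graded scale. They were not matched for expression, and whether shared arms lower detection was not tested.

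**Figure D1:**
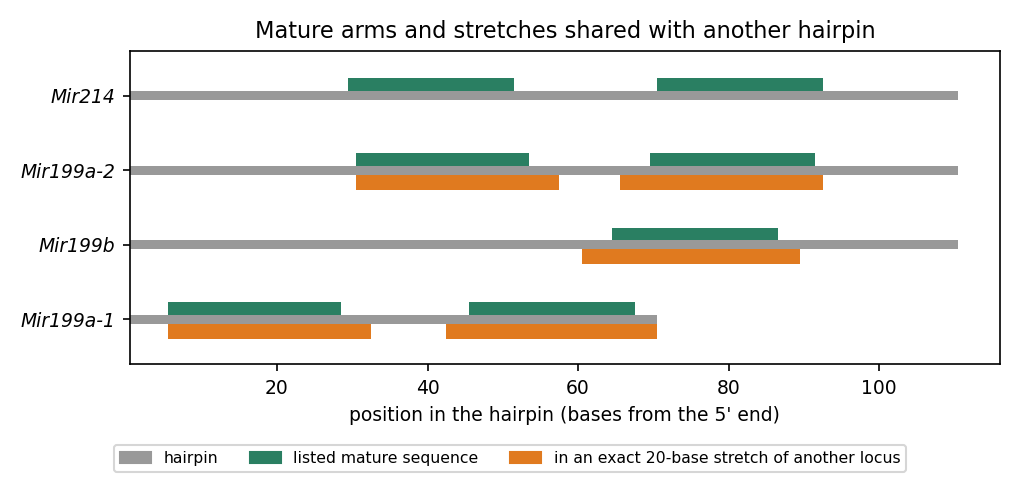
Map of the 4 hairpins, with the position in bases from the 5′ end on the horizontal axis. Green boxes are the listed mature arms and orange boxes the bases that lie in an exact stretch of 20 bases found at another microRNA locus. Every listed arm of the miR-199 genes lies within orange, and Mir214 has none.

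Own-strand reads placed on a single microRNA gene numbered 2424441 in replicate 1 and 2770301 in replicate 2, of 8069273 and 7995058 reads in all. Reads that mapped to several places, listed without a gene, made up 49.5% and 42.7%. By lists of cell type microRNAs, erythroid genes took 1.15% and 9.56% of the counts of replicates 1 and 2. The fibroblast list (Mir21a, Mir152 and these 4 genes) took 1.13% and 0.259%, but Mir21a, which many cell types express, made up 88.4% and 69.8% of that, and without it the share was 0.131% and 0.0784%. Of the 7 cardiac muscle genes 4 were detected and Mir1a-1, Mir133a-1 and Mir133a-2 were not, with the list at 0.605% and 0.858%. That order rests on Mir208a, without which the share was 0.451% and 0.271%, and the other 3 detected genes were lower in replicate 2. Reads that mapped to several places are in none of these shares, so the shares do not rank the cell types by their microRNAs. In whole tissue the cell of origin of a microRNA is not observed, and fewer cells of a type and less RNA per cell cannot be told apart.

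By reads placed on a single gene, Mir214 was the abundant member, and the miR-199 genes were counted at or near the limit of detection. Every listed arm of the miR-199 genes lies whole in another hairpin and no arm of Mir214 does, so this is no order of the microRNAs themselves. Mir214 had 2719 counts in replicate 1 and 1943 in replicate 2. Scaled to CPM, a gene's own-strand counts relative to the library's total of such counts times 1000000, that was 1121 CPM in replicate 1 (95% exact Clopper-Pearson interval 1080 to 1164) and 701 CPM in replicate 2 (671 to 733). The mean was 911 ± 297 CPM (SD, n = 2). It ranked 67 in replicate 1 and 80 in replicate 2 of 2202 genes, and was the 69th most abundant of the 306 detected genes by mean, whose median was 80.1 CPM. Its neighbours in that order of means were Mir455 (989 ± 256 CPM) above and Mir342 (908 ± 13.6 CPM) below. Mir455, at 1170 and 809 CPM in replicates 1 and 2, was above Mir214 in both. Mir342, at 899 and 918 CPM, was below Mir214 in replicate 1 and above it in replicate 2. A small RNA read covers an arm, not the hairpin, so counts were not divided by hairpin length.

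Mir199b, the gene opposite Dnm1, had 30 counts in replicate 1 and 25 in replicate 2. This was 12.4 CPM (exact interval 8.35 to 17.7) and 9.02 CPM (5.84 to 13.3), with a mean of 10.7 ± 2.37 CPM (SD, n = 2). It passed the count minimum and ranked 259 of 2202. Its neighbours Mir429 (10.9 ± 0.876 CPM) and Mir7688 (10.5 ± 1.46 CPM) lay within its spread.

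Mir199a-2, which shares the Dnm3os precursor with Mir214, had 7 counts in replicate 1 and 9 in replicate 2. This was 2.89 CPM (exact interval 1.16 to 5.95) and 3.25 CPM (1.49 to 6.17), below the 10 counts of the minimum in both libraries. Mir199a-1, opposite Dnm2, had 0 counts in replicate 1, which allows up to 1.24 CPM, and 1 count in replicate 2, or 0.361 CPM (0.00914 to 2.01). At this depth neither reached detection, and their levels, like that of Mir199b, leave out any read that mapped to several places. Intervals and limits cover counting error only, since these tables hold no molecular identifiers.

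**Figure D2:**
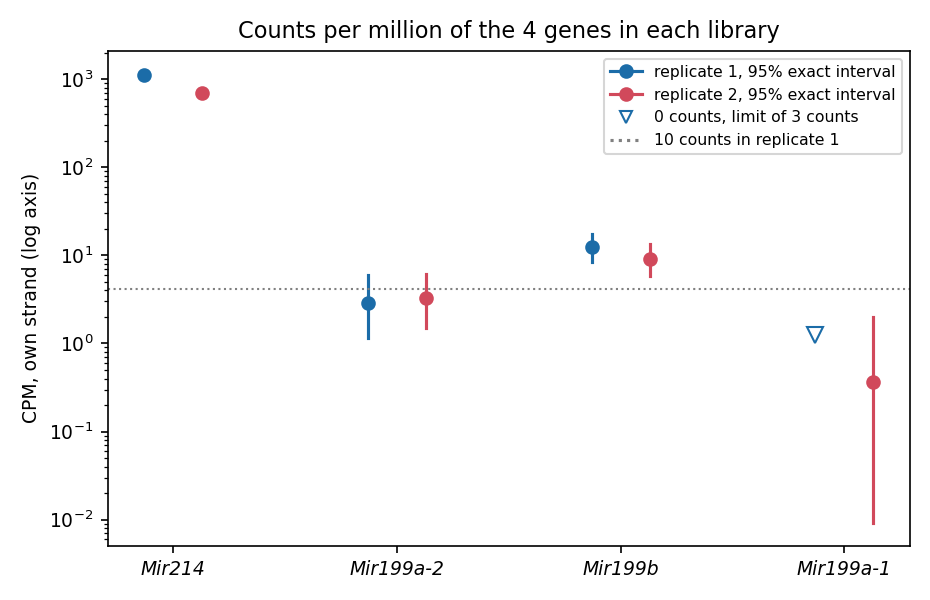
Own-strand CPM (log axis) of the 4 genes in replicate 1 (blue) and replicate 2 (red), with 95% exact intervals. The open triangle is the limit of 3 counts for Mir199a-1 in replicate 1, and the dotted line is 10 counts in replicate 1. Mir214 lies at 1121 and 701 CPM, and no miR-199 gene exceeds 12.4 CPM.

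By placed reads, the order Mir214, Mir199b, Mir199a-2, Mir199a-1 held in both libraries. Mir199b exceeded Mir199a-2 by 4.29-fold in replicate 1 (exact interval 1.84 to 11.6) and 2.78-fold in replicate 2 (1.25 to 6.76). Both listed arms of Mir199a-2 lie whole in another hairpin, whereas the 5p place of Mir199b does not, so this is a ratio of placed reads. Mir199a-2 had 7 and 9 counts in replicates 1 and 2, against 0 and 1 for Mir199a-1. Their separate intervals overlapped in each library, which does not decide whether they differ. An interval of their ratio was not computed. The summed share of the 4 genes was 0.114% (exact interval 0.109 to 0.118) for replicate 1 and 0.0714% (0.0683 to 0.0746) for replicate 2. Mir214 made up 98.7% and 98.2% of that, and the 3 miR-199 genes together gave 37 and 35 reads.

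Mir214 and Mir199a-2 come from 1 transcript, so their counts were set against each other within each library. Mir214 exceeded Mir199a-2 by 388-fold in replicate 1 (exact interval 188 to 967) and by 216-fold in replicate 2 (113 to 473). It exceeded Mir199b by 90.6-fold (63.3 to 135) and 77.7-fold (52.5 to 120). Over Mir199a-1 it was at least 906-fold higher in replicate 1, taking 3 counts as the limit per library, and 1943-fold in replicate 2, where 1 read gives an interval of 348 to 76783. None of the 3 ratios differed between the libraries beyond counting error (two-sided Fisher's exact test, Benjamini-Hochberg adjusted p = 0.585 for each). These are ratios of placed reads and not of the microRNAs, since reads shared among the miR-199 genes are not in them.

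Nearly all reads of the members stood in the own-strand column, which was told from the opposite-strand column by its larger total over all genes. Over all genes that column held 82.4% of the stranded counts in replicate 1 and 77.4% in replicate 2. Mir214 had 0 opposite-strand reads among 2719 in replicate 1 and 3 among 1946 in replicate 2, an own-strand share of 100% (exact interval 99.9 to 100) and 99.8% (99.6 to 100). These shares did not differ beyond counting error (Fisher's exact test, adjusted p = 0.290 over 4 genes). All 16 reads of Mir199a-2 over both libraries, the 55 of Mir199b and the 1 of Mir199a-1 were on the own strand. The annotation places 1 further microRNA gene within 10 kb of a member or inside Dnm1, Dnm2 or Dnm3. This is Gm23363, 117 bases from Mir199b on the same strand (chromosome 2, 32318265 to 32318343), with 2 and 3 counts.

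Between the libraries Mir214 was 1.60-fold lower in replicate 2 (exact interval 1.51 to 1.70), a log2 ratio of replicate 2 over replicate 1 of -0.68. An exact binomial test on its counts (two-sided, scaled by library totals) gave a Benjamini-Hochberg adjusted p of 2.65e-56 over 306 genes, which sets the difference of 2 libraries against counting error. By that test 61.1% of the 306 detected genes differed and 41.5% were lower in replicate 2. With a fold of at least 1.5 as well, 36.6% differed and 25.5% were lower. The difference of Mir214 ranked 111 of 306 by size. Set against the spread of all genes between the libraries, by edgeR's exact test with a common dispersion, it was not resolved. That dispersion was estimated from the same 2 libraries taken as 1 group. It therefore holds the difference under test, few genes can pass, and the test does not decide whether Mir214 differed.

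The fold of Mir214 moved with the scale. It was 1.46-fold when the erythroid genes Mir451a, Mir144 and Mir486, whose share was 8.32-fold higher in replicate 2, were left out of the totals. It was 1.37-fold with TMM and 1.40-fold with DESeq2 factors, lower in replicate 2 each time and past the binomial test. The median detected gene had a log2 ratio of -0.19 on library totals, 0.03 with TMM and 0 with DESeq2 factors. Mir199b was 1.37-fold lower in replicate 2 (exact interval 0.780 to 2.43), which did not pass the binomial test (adjusted p = 0.361). Its 55 reads do not resolve a change of the size seen for Mir214. With no filter on counts, Mir199a-2 and Mir199a-1 both had an adjusted p of 1 by the same binomial test over 682 genes.

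Mir214 was compared with 13 other microRNA genes known from mesenchymal cells, all of them detected. It was 9th of 15 by level when Mir199b is included, between Mir10a and Mir10b, which lie in the Hox clusters. Mir10a stood at 1228 CPM in replicate 1 and 1380 in replicate 2, above both libraries of Mir214, and Mir10b at 697 and 673 CPM, just below its value in replicate 2. Mir143, abundant in smooth muscle, stood highest at 46119 ± 3672 CPM. Of the 13 genes 10 were lower and 2 higher in replicate 2 by the binomial test, against 41.5% of all genes lower and 19.6% higher, with a median log2 ratio of -0.97 against -0.19. The list was chosen with earlier results of these data known, so this count is no independent support. With TMM factors 9 were lower and 4 higher, against 27.5% of all genes lower and 31.7% higher. With DESeq2 factors the list gave the same counts, against 28.8% and 30.7%, and with edgeR's common dispersion none passed. Mir10b, at -0.05, was the gene that did not pass on library totals. The erythroid share was higher in replicate 2 (9.56% against 1.15%). With Mir451a, Mir144 and Mir486 left out of the totals, 10 genes of the list were lower and 2 higher. Of all genes 33.0% were then lower and 25.5% higher. Leaving these erythroid genes out changes only the totals, and the cause of the differences was not tested.

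Ratios to single genes of that list do not depend on library totals. Mir21a, a microRNA raised in activated fibroblasts, had 24289 counts in replicate 1 and 5013 in replicate 2, a difference of 5.54-fold on library totals. It exceeded Mir214 by 8.93-fold in replicate 1 and 2.58-fold in replicate 2, so the ratio of Mir214 to Mir21a was 3.46-fold higher in replicate 2 (two-sided Fisher's exact test, adjusted p = 6.37e-282). Mir143 had 118108 and 120570 counts, and the ratio of Mir214 to it was 1.43-fold higher in replicate 1 (adjusted p = 5.51e-33 by the same exact test). Beyond counting error, the ratio of Mir214 to each of these genes thus differed between the libraries. The ratios alone do not say which gene moved. On library totals Mir214 was 1.60-fold lower in replicate 2, against 5.54-fold for Mir21a and 1.12-fold for Mir143.

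**Figure D3:**
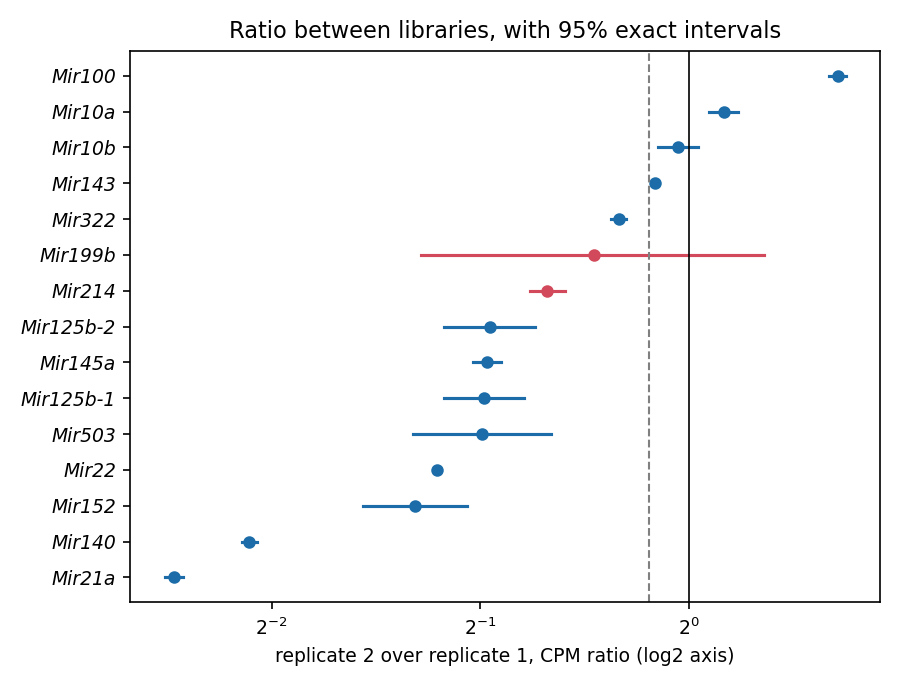
CPM in replicate 2 over replicate 1 (log2 axis) for Mir214 and Mir199b (red) and the 13 mesenchymal genes (blue), with 95% exact intervals. The solid line is equality and the dashed line the median of 306 detected genes. Mir21a lies lowest, Mir100 highest, and the interval of Mir199b crosses equality.

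The genes nearest to Mir214 in log2(CPM + 1) over the 2 libraries were Mir29c (1001 CPM in replicate 1 and 716 in replicate 2), Mir455 (1170 and 809) and Mir335 (960 and 635). Their distances were 0.17, 0.21 and 0.27 log2 units. Nearest to Mir199b were Mir7689 (28 and 22 counts), Mir106a (36 and 22) and Mir20b (28 and 31), at 0.19, 0.30 and 0.30. With 2 libraries this likeness is chiefly one of level.

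**Figure D4:**
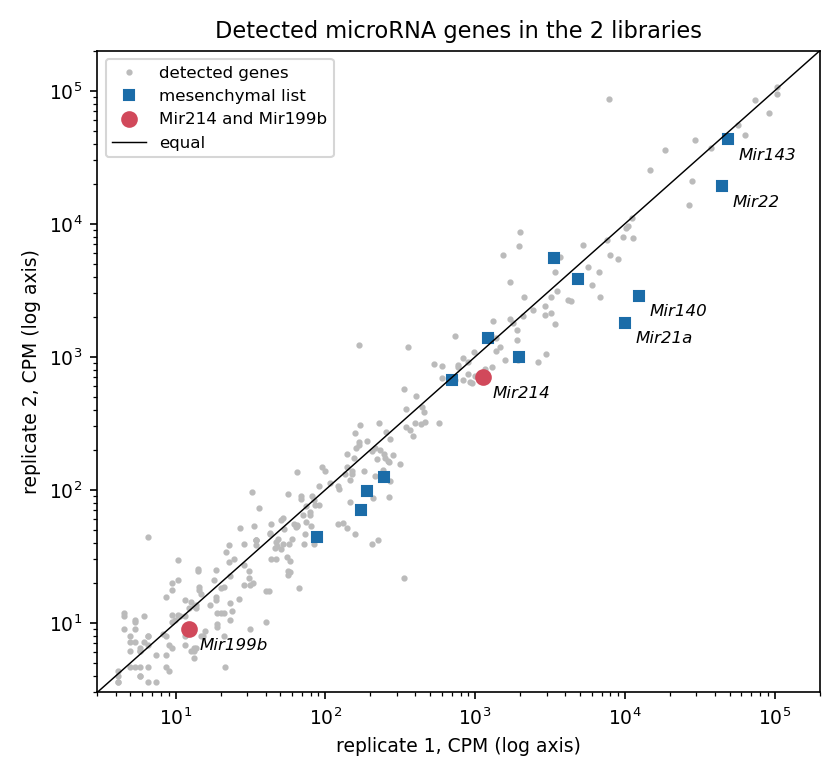
CPM of the 306 detected genes in replicate 1 (horizontal, log axis) and replicate 2 (vertical, log axis), with the mesenchymal list as blue squares and Mir214 and Mir199b as red circles. Mir214 and Mir199b lie below the line of equality, and Mir21a and Mir140 lie farther below it.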

How the data were processed

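Short RNA of 2 heart libraries was analysed from read counts per microRNA gene. Per the text deposited with the tables, the authors used mm10 and GENCODE M21. The aligner, counter and trimming were not given in the sources used here. Counts as deposited are raw, in columns for either, own and opposite strand, identified from their values. The 4 lines that name no gene held 70.0% and 65.3% of reads and were left out of totals. CPM were computed on totals of 2424441 and 2770301 own-strand counts, so 10 counts are 4.12 and 3.61 CPM. Tests were exact binomial and Fisher's exact tests with Benjamini-Hochberg adjustment at 0.05. With 1 group there is no contrast for a model of conditions. Hairpins were compared for exact stretches of 20 bases (alternatives 18 and 22), leaving out overlapping genes. Of 2202 genes 972 matched a RefSeq hairpin.

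The members and lists were chosen with earlier results of these data known. The text names the 4 members, microRNA genes within 10 kb or in Dnm1, Dnm2 or Dnm3, seed sharers, the mesenchymal list, the 3 genes nearest in level to Mir214 and to Mir199b and, outside that rule, neighbours in rank, list genes and the detected genes with shared arms. Tools were Python 3.11.15, numpy 2.4.6, pandas 2.3.3, scipy 1.17.1, matplotlib 3.10.9, R 4.3.3, edgeR 4.0.16 and DESeq2 1.42.0.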

Additional observations from a re-analysis of the deposited data

Results flagged for a closer look

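Reads that mapped to several places lie outside the counts used here and far exceed the 3 reads that a count of 0 allows. They numbered 3992614 in replicate 1 and 3410568 in replicate 2, or 1449 and 1724 for each read placed on the 4 genes. The tables do not say from which genes they came, so how many are miR-199 reads was not tested.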

How the results depend on the processing

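No paired analysis was possible because the labels give 1 group. On the either-strand column, mean levels were 1209 CPM for Mir214, 14.2 for Mir199b and 4.13 for Mir199a-2. With all reads as the total they were 290.0, 3.42 and 0.997 CPM. Either-strand counts in replicates 1 and 2 were 2719 and 1946 for Mir214, 30 and 25 for Mir199b and 7 and 9 for Mir199a-2. Both alternatives thus moved these levels almost wholly through the total. With edgeR's exact test and a common dispersion, 2 genes passed in place of 187, and 2 in place of 112 with the fold minimum (17 at an unadjusted p under 0.05), and Mir214 kept its log2 ratio of -0.68 with an adjusted p of 1. Its log2 ratio was negative and passed the binomial test under each other alternative. Genes past the test and at least 1.5-fold higher or lower numbered 34 and 78 on library totals, 52 and 46 with TMM and 48 and 49 with DESeq2 factors. Leaving out 1 replicate gave 701 to 1121 CPM for Mir214, 9.02 to 12.4 for Mir199b, 2.89 to 3.25 for Mir199a-2 and 0 to 0.361 for Mir199a-1, and ratios of Mir214 of 216 to 388 over Mir199a-2 and 77.7 to 90.6 over Mir199b. The cause of the differences between the replicates was not tested. With stretches of 18 or 22 bases the same 3 members shared bases. The miR-199 genes had 72 placed reads in all, which bounds the precision of their values.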
